A study of Rattus norvegicus with 32 samples.

Results

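Cytoplasmic dynein 1 is the motor that walks towards the minus ends of microtubules, and dynactin is the complex it needs to bind cargo and travel far. Cargo is joined to the pair by adaptor proteins such as Bicd2. In neurons dynein carries endosomes, autophagosomes and signalling vesicles back to the soma, and in dendrites, whose microtubules point both ways, it also moves cargo outwards. The genes described here were 10 that were chosen by symbol: the heavy chain Dync1h1, the intermediate chains Dync1i1 and Dync1i2, the light intermediate chains Dync1li1 and Dync1li2, the light chains Dynll1 and Dynlrb1, the dynactin subunits Dctn1 and Dctn2, and the adaptor Bicd2. All 10 were among the 17216 gene rows of the deposited count tables.

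The series measured polyadenylated RNA in the soma and, separately, in the dendrites of 16 single hippocampal neurons. The rats were wildtype Sprague Dawley, the tissue was taken on embryonic day 18, the cells had spent 15 days in culture, and the submitters labelled them pyramidal. No treatment or allele set the groups apart: they were 16 soma and 16 dendrite libraries, paired by the neuron's number, and each library was made by 3 rounds of linear RNA amplification. The neurons came from several cultures on several days, which the labels do not tie to a number. Tests paired by neuron therefore judge the mean dendrite-to-soma difference against its spread among neurons, and cannot separate cells from cultures in that spread.

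Soma libraries held between 878125 and 24721811 gene counts, and dendrite libraries between 229149 and 24439768, with the dendrite library the shallower of the pair in 14 of 16 neurons. Neurod6, which encodes a transcription factor known from pyramidal cells, reached 10 counts in all 32 libraries, whereas Slc17a7, the vesicular glutamate transporter of mature excitatory neurons, did so in 5 soma and 2 dendrite libraries. Markers of inhibitory neurons (5 genes) summed to between 0 and 13198 counts per 1000000 gene counts (CPM) in soma, with a median of 52.9 CPM. Some gene among them reached 10 counts in 11 soma and 13 dendrite libraries, while Dlx2 did so in none. The label of a pyramidal cell was therefore not borne out by these markers in every library. The 6 pyramidal markers summed to between 62.2 and 4578 CPM in soma and between 5.81 and 3850 CPM in dendrites. Among them Tbr1 stayed under 10 counts in every soma. The 5 microglia markers had under 10 counts in every library. The dendrite libraries of neurons 13 and 20 stood apart through their likeness, with a Spearman correlation of 0.784 against 0.560 for the next pair of dendrite libraries. The soma of neuron 9 resembled the dendrites of neuron 7 (Spearman 0.165, on log2 values centred within each compartment) more than its own dendrites (0.0699). The soma of neuron 7 stood at 0.259 with the dendrites of neuron 9, and the soma of neuron 8 at 0.231 with the dendrites of neuron 9 and at 0.193 with its own. Over all 16 neurons, 7 somata matched their own dendrites best, and 5 dendrite libraries matched their own soma best. Whether numbers among neurons 7, 8 and 9 were exchanged was not tested, and the pairing of every neuron rests on the labels. Results were therefore also computed without neuron 20, without neuron 25, which had the shallowest libraries, and without neurons 7, 8 and 9.

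Most of the 10 genes were detected throughout both compartments. Of the 10 genes, 8 had 10 or more counts in all 16 somata, and 7 of these had them in all 16 dendrite libraries too. Among all 17216 gene rows, 1538 had 10 or more counts in at least 28 of 32 libraries, including 8 of the 10 genes. Sorted by role into heavy chain, intermediate chain, light intermediate chain, the light chains Dynll1 and Dynlrb1, and the dynactin subunits Dctn1 and Dctn2, all 7 roles reached 10 counts in 16 of 16 somata and in 15 of 16 dendrite libraries. The exception was the dendrites of neuron 20, where Dync1h1 had 7 counts. These roles cover the chosen genes only, and another dynactin subunit gene, Dctn4, had under 10 counts in every library. Between 8 and 10 of the genes were detected in each library, and the 2 genes that came and went were Dync1li1 and Bicd2. Such gaps were not particular to them, since the neuronal marker Map2 reached 10 counts in 11 soma and 12 dendrite libraries. The 10 genes together summed to 5808 ± 1736 CPM in soma, and to 4236 ± 1787 CPM in dendrites (SD over 16 libraries each). Dync1i1 alone had means of 2572 and 1425 CPM in these sums, which were not tested. Means of Dync1h1, Dctn2 and Bicd2 were higher in dendrites, and those of the other genes in soma. CPM is relative to all gene counts of the same library, so a gene's CPM cannot show how much RNA a compartment held. It is not divided by transcript length, so levels are compared here between compartments and cells, not between genes. Counts of neurons with more in 1 compartment use CPM. Log2 differences of single neurons also carry TMM scaling, which corrects for a few genes taking much of a library, and a prior count of 2.

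**Figure D1:**
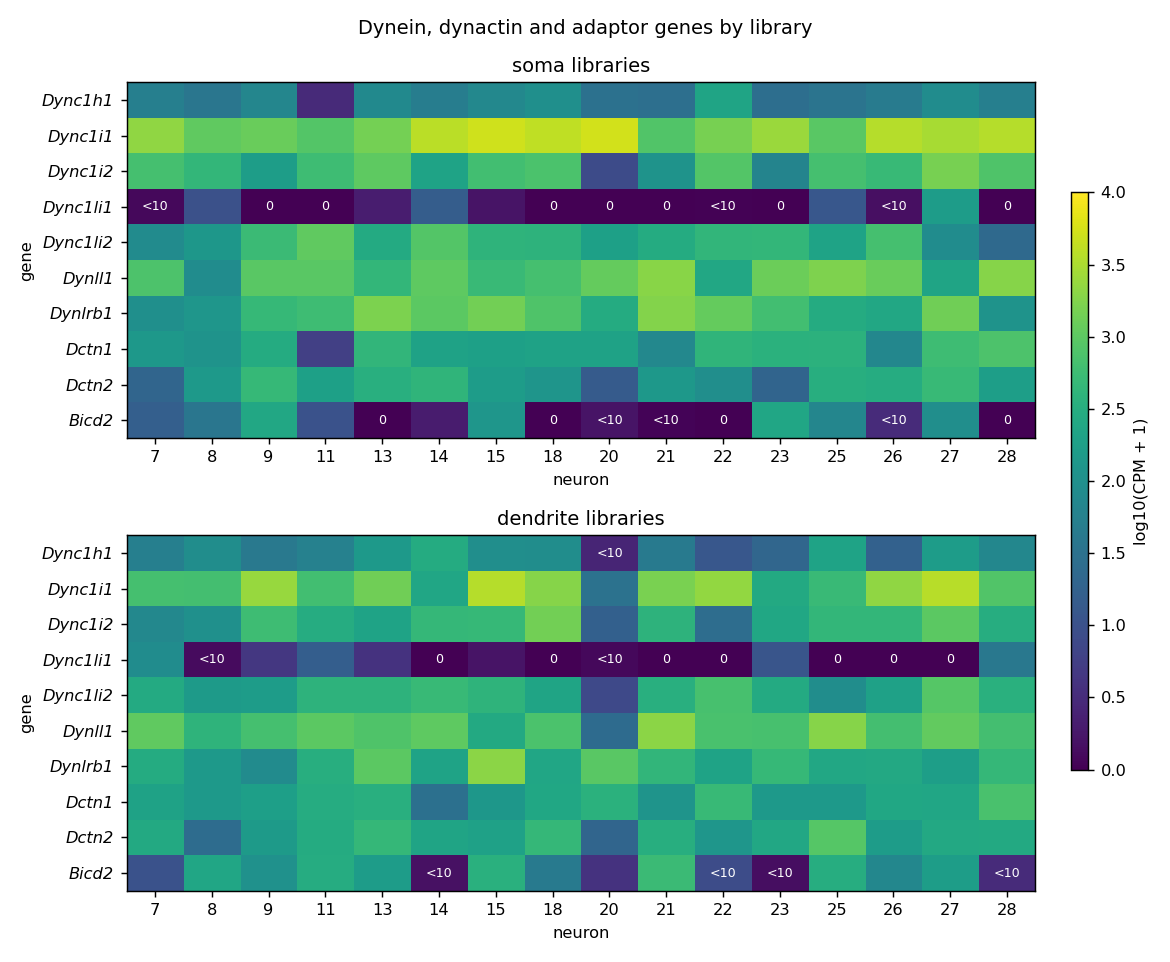
Levels of the 10 genes in each of the 16 soma libraries (top) and 16 dendrite libraries (bottom), as log10(CPM + 1) with neurons in columns; cells marked 0 or <10 had no counts or fewer than 10. Dync1li1 and Bicd2 are patchy in both compartments, and the dendrites of neuron 20 are dark for most genes.

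Setting the dendrites of a neuron against the soma of the same cell addressed whether these mRNAs were distributed unequally between the compartments. None of the 9 genes that passed the filter on low counts was called in edgeR's quasi-likelihood test with the neuron as a block, at a Benjamini-Hochberg adjusted p of 0.05 over 4916 genes. The background was the same, since 0 genes or 0% of all those tested were called. An unadjusted p under 0.05 was reached by 2 of the 9, Dync1i1, lower in dendrites, and Bicd2, higher, against 129 genes or 2.62% of all tested. By adjusted p, limma-voom and an exact sign-flip permutation test per gene called 0 of the 9 genes, and each called 0 of all 4916. The DESeq2 Wald test called 1 of the 9, Bicd2, where it called 8.26% of all genes. Over the 9 genes the median log2 fold change, dendrites over soma, was -0.091, with 4 positive and 5 negative, and over all tested genes it was 0.127, with 2696 positive and 2220 negative.

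**Figure D2:**
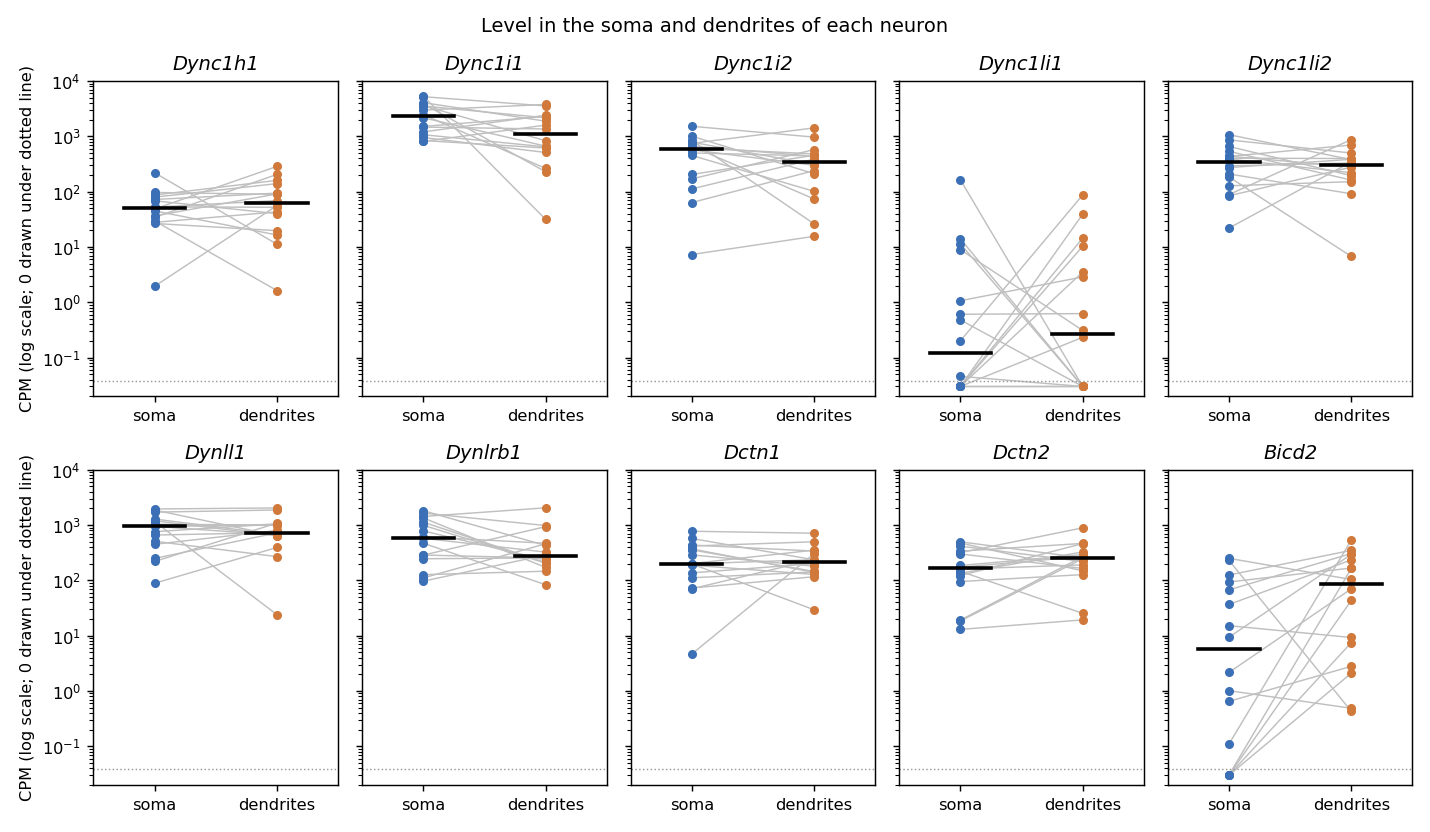
CPM of each gene in the soma (blue) and dendrites (orange) of 16 neurons on a log axis, with grey lines joining the libraries of 1 neuron and black bars at the medians; libraries at 0 are drawn under the dotted line. The compartments overlap for every gene, and lines cross in both directions.

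The heavy chain Dync1h1 encodes the ATPase that steps along the microtubule and holds the other subunits. In soma it ranged from 1.94 CPM in neuron 11 to 220 CPM in neuron 22, with a median of 50.6 CPM. In dendrites it ranged from 1.63 CPM in neuron 20 to 286 CPM in neuron 14, with a median of 62.5 CPM. The 2 ranges overlapped almost wholly, and 9 of 16 neurons had more in dendrites. The fitted log2 fold change was 0.26 ± 0.88 (SE, n = 16 neurons; edgeR adjusted p = 0.999). Single neurons departed far from this value in both directions: neuron 22 stood at -4.50 and neuron 11 at 4.46 on the log2 scale.

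The intermediate chains form the platform on which the light chains sit and which binds the dynactin subunit p150. Dync1i1, known from neurons and few other tissues, was found in every library. Its level in soma ran from 808 CPM in neuron 21 through a median of 2319 CPM to 5363 CPM in neuron 20. In dendrites it ran from 31.6 CPM in neuron 20 through a median of 1095 CPM to 3772 CPM in neuron 27. Somata thus spanned a 6.64-fold range and dendrites a 119-fold range, and 12 of 16 neurons had less in dendrites. The width of the dendrite range rested on neuron 20, since the next lowest dendrite library, that of neuron 14, had 229 CPM. The mean was 2572 ± 1556 CPM in the somata, against 1425 ± 1161 CPM in the dendrites (SD, n = 16). edgeR gave a log2 fold change of -1.11 ± 0.45 (SE, n = 16; unadjusted p = 0.0201, adjusted p = 0.999, quasi-likelihood test), or -1.24 relative to the median of all tested genes. It lay between -1.32 and -0.85 when each neuron was left out in turn, the value nearest 0 being that without neuron 20, and stood at -0.54 with limma-voom. Besides neuron 20, the dendrites of neurons 14 (229 CPM) and 23 (263 CPM) were low against their somata (3895 and 2467 CPM). The dendrites of neuron 9, with 2406 CPM against 1202 CPM in its soma, had the largest difference in the opposite order, which rests on that neuron's label; without neurons 7, 8 and 9 the edgeR value was -1.28.

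Dync1i2, the intermediate chain found in most tissues, was in every library as well. In soma it ranged from 7.29 CPM in neuron 20 to 1520 CPM in neuron 27, with a median of 593 CPM. In dendrites it ranged from 15.6 CPM in neuron 20 to 1421 CPM in neuron 18, with a median of 348 CPM. Neuron 20 was therefore the lowest in both compartments. Its log2 fold change was -0.39 ± 0.66 (SE, n = 16; edgeR adjusted p = 0.999), with less in the dendrites of 10 neurons. The lowest log2 differences were those of neuron 22 at -5.23 and neuron 7 at -3.65. The highest was that of neuron 20 at 3.27, although its CPM went only from 7.29 to 15.6, the rest being TMM scaling and the prior count.

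Since a dynein complex holds a pair of intermediate chains, the share of Dync1i1 in the counts of both genes was compared within each library, where scaling to the library plays no part. The share was 79.2% ± 14.2 in soma and 73.6% ± 17.3 in dendrites (SD over 16 neurons). Taken within neurons, the share was -5.57 ± 25.8 percentage points (SD) from soma to dendrites, and lower in the dendrites of 10 of 16. This did not exceed the spread between neurons (two-sided exact permutation test by sign flips, p = 0.406, or 0.813 adjusted over the 2 shares tested). Soma shares lay between 58.9% in neuron 25 and 99.9% in neuron 20, and dendrite shares between 33.5% in neuron 14 and 98.9% in neuron 22. In neuron 14 the share passed from 95.0% in soma to 33.5% in dendrites, and in neuron 22 from 64.1% to 98.9%. Because transcript length enters these shares, they compare libraries and not the amounts of the 2 transcripts.

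**Figure D3:**
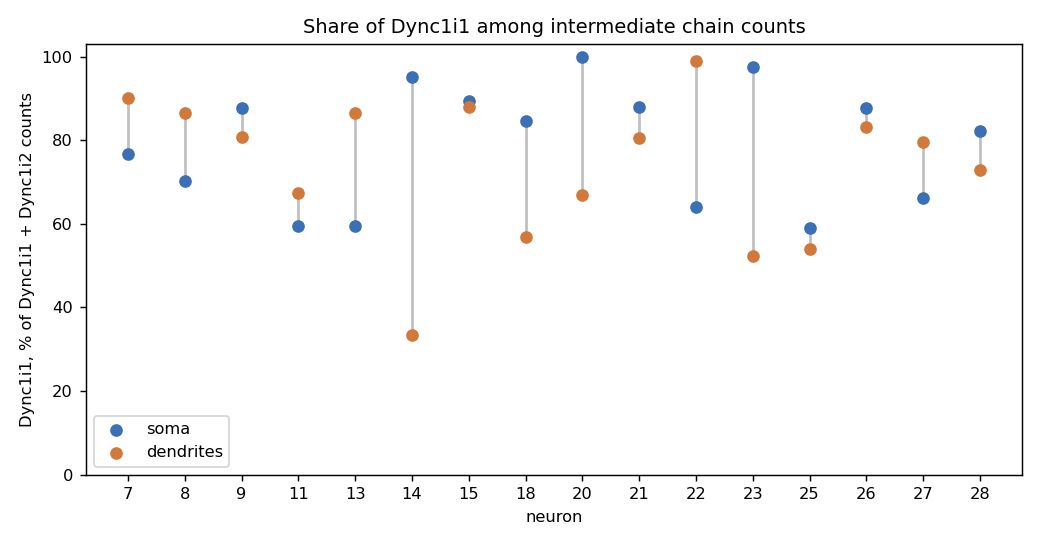
Dync1i1 counts as a percentage of Dync1i1 plus Dync1i2 counts in the soma (blue) and dendrites (orange) of each neuron, joined by a line. The share was below 50% in 1 library only, the dendrites of neuron 14 (33.5%), and the compartments differ in either direction, with 10 of 16 neurons lower in dendrites.

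The light intermediate chains bind the adaptors that bring cargo. Dync1li2 was detected in all 32 libraries. Its lowest, median and highest levels were 21.9, 341 and 1071 CPM in soma, and 6.74, 306 and 872 CPM in dendrites. The lowest dendrite library was again that of neuron 20, while the lowest soma was that of neuron 28. The log2 fold change of Dync1li2 was -0.20 ± 0.59 (SE, n = 16; edgeR adjusted p = 0.999), and 0.0070 without neuron 20.

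Dync1li1, its paralog, was patchy. It had 10 or more counts in 6 soma and 7 dendrite libraries and 0 counts in 7 libraries of each compartment, and did not pass the filter for the test. A count of 0 allowed for up to 0.15 to 0.486 CPM in those somata and 0.123 to 13.1 CPM in those dendrites, taking 3 counts as the limit. The highest soma library was that of neuron 27 with 164 CPM (2734 counts), yet its dendrites had 0 counts in a library with 21322 counts of Dync1li2. The highest dendrite library was that of neuron 7 with 87.1 CPM (696 counts), whose soma had 3 counts. In the same cell, 2 neurons (13 and 15) had 10 counts in both compartments, 4 in the soma alone, 5 in the dendrites alone and 5 in neither. The share of Dync1li1 in the counts of both light intermediate chains was 4.95% ± 16.1 in soma and 2.99% ± 6.18 in dendrites (SD, n = 16), and the mean difference was -1.96 ± 18.2 percentage points (two-sided exact permutation test by sign flips, p = 0.868, or 0.868 adjusted over the 2 shares). That difference rested on neuron 27 and was 2.24 percentage points without it. Medians of the share were 0.0418% and 0.180%.

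Among the light chains, Dynll1 encodes LC8, a small dimeric hub protein that also binds many partners outside dynein. In soma it ranged from 88.7 CPM in neuron 8 to 1952 CPM in neuron 21, with a median of 945 CPM. In dendrites it ranged from 23.9 CPM in neuron 20 to 2038 CPM in neuron 21, with a median of 724 CPM. Neuron 21 was the highest in both compartments. On the log2 scale the fold change was -0.09 ± 0.44 (SE, n = 16; edgeR adjusted p = 0.999), with more in the dendrites of 9 neurons, and it changed sign to 0.14 without neuron 20 and to 0.02 when libraries were scaled to their spike-ins.

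Dynlrb1 encodes a light chain of the roadblock family. Its lowest, median and highest levels were 96.6, 594 and 1821 CPM in soma, and 83.5, 271 and 2047 CPM in dendrites. The soma mean was 747 ± 578 CPM and the dendrite mean 468 ± 493 CPM (SD, n = 16). The log2 fold change of -0.66 ± 0.52 was not called (SE; edgeR adjusted p = 0.999), and 10 neurons had less in dendrites. With no block for the neuron it was -0.0081. Neuron 15 was high in both compartments, at 1428 CPM in its soma and 2047 CPM in its dendrites. Neuron 20 went against the majority, at 286 CPM in its soma and 934 CPM in its dendrites.

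Dynactin was represented by Dctn1, which encodes p150, the subunit that binds microtubules and the intermediate chain, and by Dctn2, which encodes dynamitin of the shoulder. Dctn1 ranged from 4.64 CPM in neuron 11 to 771 CPM in neuron 28 in soma, with a median of 200 CPM. In dendrites it ranged from 29.4 CPM in neuron 14 to 712 CPM in neuron 28, with a median of 218 CPM. Neuron 28 was the highest in both compartments. The estimate for Dctn1 was close to 0, at 0.0032 ± 0.579 on the log2 scale (SE, n = 16; edgeR adjusted p = 1.00), with 8 neurons on either side, and its sign changed with the scaling, from 0.03 with DESeq2 size factors to -0.26 with spike-in scaling. The largest departure was neuron 11, at 5.70 on the log2 scale, whose soma was also the lowest soma for Dync1h1.

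Dctn2 ranged from 12.97 to 497 CPM in soma, with a median of 166 CPM, and from 19.3 to 890 CPM in dendrites, with a median of 251 CPM. The lowest library of each compartment was that of neuron 20. More was found in the dendrites of 11 of 16 neurons. This gave a log2 fold change of 0.53 ± 0.68 (SE, n = 16; edgeR adjusted p = 0.999), and single neurons ran from -2.68 in neuron 8 to 3.80 in neuron 23.

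Bicd2, the adaptor, joins dynein and dynactin to Rab6 vesicles and other cargo. It had 10 or more counts in 9 soma and 12 dendrite libraries. In soma its lowest, median and highest levels were 0, 5.76 and 250 CPM, and 4 somata had 0 counts, which allowed for at most 0.137 to 0.378 CPM. In dendrites the values were 0.428, 86.9 and 534 CPM, and every library had at least 3 counts. Neuron 21 showed the widest gap, with 0.109 CPM in soma (1 count) and 534 CPM in dendrites (1512 counts), and neurons 13 and 18 had 0 counts in soma and 164 and 43.3 CPM in dendrites. Neuron 23 was the reverse, at 231 CPM in its soma and 0.428 CPM in its dendrites. In 7 neurons Bicd2 was detected in both compartments, in 5 in the dendrites alone, in 2 in the soma alone and in 2 in neither. The groups overlapped, and 12 of 16 neurons had more in dendrites.

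The log2 fold change of Bicd2 was 3.37 ± 1.59 (SE, n = 16; unadjusted p = 0.0434, adjusted p = 0.999, edgeR). Mean levels were 51.9 ± 82.9 CPM in the somata and 143 ± 161 CPM in the dendrites (SD, n = 16). Leaving out 1 neuron at a time moved the edgeR value between 2.86 and 3.81 and its unadjusted p between 0.0192 and 0.0757, and without neurons 7, 8 and 9 it was 4.42. The DESeq2 Wald test gave 3.52 with an adjusted p of 0.00265, a call that edgeR, limma-voom (2.48, adjusted p = 0.986) and the sign-flip test did not make. Those tests each called 0 of 4916 genes and DESeq2 8.26%, so the missing calls were not particular to Bicd2. Without the block for the neuron the edgeR value was 1.43 (adjusted p = 0.977). With counts thinned to 1071293 per library, which left out neuron 25, Bicd2 had 5 or more counts in 11 of 15 dendrite and 7 of 15 soma libraries. This difference was not tested, and thinning matched total counts only. The summed level of the 8 astrocyte markers had a median of 72.1 CPM in soma (13.2 to 670) and 177 CPM in dendrites (17.4 to 1510). It was higher in the dendrites of 10 neurons, 9 of which also had more Bicd2 there. Among these markers Slc1a2 stayed under 10 counts in every soma and Aldh1l1 in every dendrite library. In 3 neurons Bicd2 was higher in dendrites while the markers were lower, and the part of other cells in this difference was not tested.

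**Figure D4:**
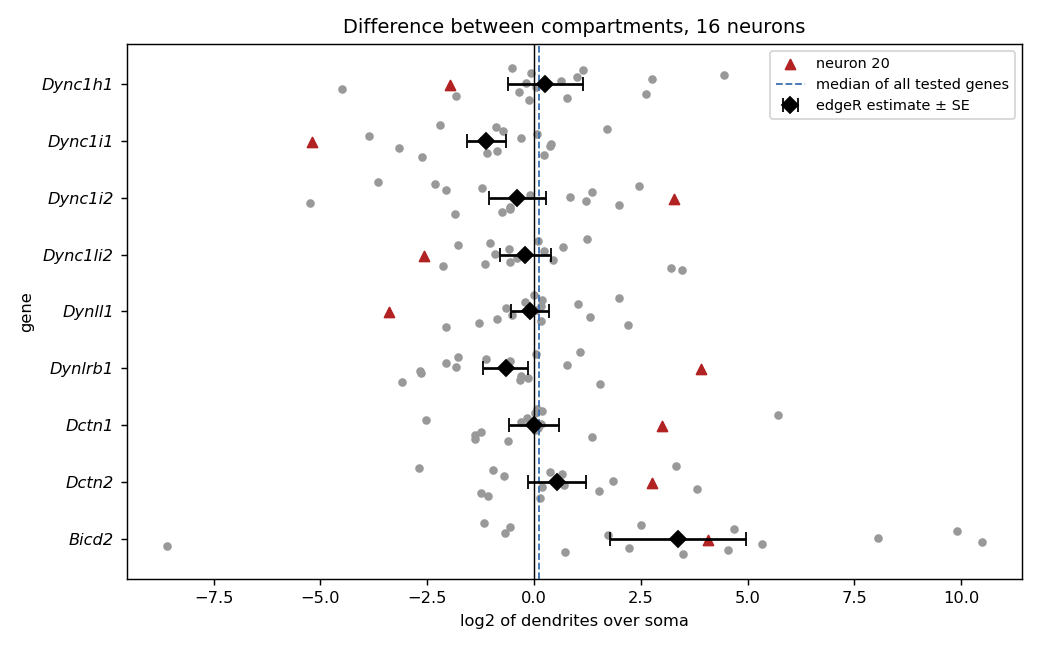
Log2 of dendrites over soma for the 9 tested genes: grey points are single neurons, red triangles neuron 20, black diamonds the edgeR estimate ± SE, and the dashed line the median of all tested genes (0.127). Dync1i1 (-1.11) and Bicd2 (3.37) lie farthest from that line, and neuron 20 is at one end of the range for Dync1i1, Dync1i2, Dync1li2, Dynll1 and Dynlrb1.

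By CPM, the dendrites of neuron 20 were the lowest dendrite library for 6 of the 10 genes: Dync1h1, Dync1i1, Dync1i2, Dync1li2, Dynll1 and Dctn2. For Dynlrb1 and Dctn1 the same library had 934 and 352 CPM, near the 980 and 339 CPM of the dendrites of neuron 13, the library that it resembled across all genes. For the other tested genes the 2 libraries differed widely in CPM, neuron 20 having the lower value each time. Dync1i1 had 31.6 CPM in neuron 20 and 1358 CPM in neuron 13, Dynll1 23.9 and 797 CPM, Dctn2 19.3 and 465 CPM, and Dync1li2 6.74 and 384 CPM. Dync1i2 had 15.6 and 211 CPM, Bicd2 2.79 and 164 CPM, and Dync1h1 1.63 and 140 CPM. These values carry no TMM scaling, which moved the dendrites of neuron 20 upwards. Dctn1 rose from 201 to 352 CPM between its soma and dendrites, yet the log2 difference with TMM scaling was 3.01. Spike-ins made up 4.33% of the counts in the dendrites of neuron 20 and 0.211% in those of neuron 13. The part of scaling in these gaps, and what sets the dendrites of neuron 20 apart, were not tested. In raw counts its dendrites had 12 of Bicd2 and 29 of Dync1li2, where those of neuron 13 had 3140 and 7359. Such low counts pass the limit of 10 and were taken as detected, and whether they reflect RNA of that cell was not tested.

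Between neurons, 8 of the 9 tested genes varied less than the typical gene. The SD of log2 CPM over 16 neurons lay between 1.13 (Dync1i1) and 1.89 (Dync1i2) in soma and between 0.84 (Dynll1) and 1.57 (Dync1i2) in dendrites for these 8, where the medians over all tested genes were 3.46 and 3.22. Bicd2 was the exception, with 4.08 in soma and 3.26 in dendrites. By mean log2 CPM, which is not per length and serves here only to place the SDs, the 8 genes stood at or above the 73.3 percentile of tested genes in soma and the 74.8 percentile in dendrites. Bicd2 stood at 32.5 in soma and 69.5 in dendrites, and the part of level in these SDs was not tested.

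Levels in the soma and dendrites of the same cell were weakly related. The Spearman correlation between soma and dendrites over the 16 neurons lay between -0.06 (Dync1i2) and 0.55 (Dctn1) for the 9 genes, with a median of 0.221, where the median over all tested genes was 0.0816. These are descriptions, in which the paired libraries share a cell and perhaps a culture day. The subunits' levels were also set against each other. Over 32 libraries, on log2 CPM centred within compartments, the 36 pairs of tested genes had a median Spearman correlation of 0.0663, and 55.6% were above 0, where all pairs of tested genes had a median of 0.0506 and 59.8% above 0. The closest pair was Dync1h1 with Dync1i2, at 0.521, and the 2 intermediate chains stood at 0.330. The most opposed pair was Dynll1 with Dctn1, at -0.26. Libraries share depth and amplification, which enter all of these values.

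The genes most like each member in the same centred values were named where the Spearman correlation reached 0.6 over 32 libraries, for members with 10 counts in at least 24 libraries. Dynlrb1 was most like the ribosomal protein genes Rps13 (0.749) and Rps2 (0.728). Dync1li2 was most like Pdha1 (0.696), a subunit gene of pyruvate dehydrogenase, Dync1h1 like Tmem132a (0.680) and Sfxn1 (0.654), and Dync1i1 like Ankrd6 (0.668) and the 14-3-3 gene Ywhaq (0.624). Dctn1 was most like Mau2 (0.657) and Plcg1 (0.602), Dctn2 like the translation factor gene Eif3f (0.643) and Mrps34 (0.606), Dynll1 like Enc1 (0.632) and Bhlhe22 (0.604), and Dync1i2 like the chromatin remodeller gene Smarca4 (0.614). Each was picked as 1 of the 2 highest over all tested genes, so its size is a description only.

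A list of 41 other pathway genes was also read from the same fit: 39 had a row in the count tables and 28 were tested. None of the 28 was called by edgeR (0 with an unadjusted p under 0.05), limma-voom, the sign-flip test or DESeq2. Over all tested genes DESeq2 called 8.26% and the other tests 0. The median log2 fold change of the 28 was 0.015, with 14 positive and 14 negative. Among other light chains, Dynll2, the second LC8 gene, was in all 32 libraries, at 382 ± 214 CPM in somata against 528 ± 426 CPM in dendrites (SD, n = 16), and its log2 fold change was 0.28 ± 0.54 (SE). Among 9 tested dynactin subunits, 4 were positive and 5 negative. Actr1a, which encodes the Arp1 filament, stood at -0.22 ± 0.75, Capzb, a capping protein subunit, at -0.36 ± 0.44, and Capza2, its partner, at -1.18 ± 0.76 (SE, n = 16). Mean Capza2 levels were 507 ± 393 CPM in somata against 244 ± 178 CPM in dendrites (SD), with less in the dendrites of 12 neurons. Of 15 other adaptor genes in the rows 8 were tested, 4 positive and 4 negative. Trak2, which links mitochondria to motors, was at -1.58 ± 1.05, and Hook1, an adaptor of endosomes, at 1.57 ± 1.92. Dctn4, Spdl1 and Rilp had under 10 counts in every library. Among regulators, Pafah1b1, which encodes Lis1, an activator of dynein, was at 0.66 ± 0.94 and higher in the dendrites of 11 neurons, and Ndel1, which recruits Lis1, was at -1.13 ± 0.85 and lower in the dendrites of 10. The cargo linker gene Htt was at 0.30 ± 1.76, with 10 counts in 11 soma and 12 dendrite libraries. The adjusted p from edgeR was 0.999 for each tested gene of this list that is named here.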

How the data were processed

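The authors deposited whole-number counts per gene for each of 32 libraries, used here as raw counts. The submitters' processing notes name the build rn6. Not given in the sources used here are the aligner, the annotation, the use of strand and what was done with reads that match more than 1 gene, so counts of paralogs are uncertain to that extent. CPM was taken over 17216 gene rows, without 92 spike-in rows. Neurons were paired by the number in the title, since the series text gives 1 soma and 1 dendrite sample per cell; same-numbered libraries had a mean centred Spearman correlation of 0.0678 (different neurons -0.00054; 4 of 16 over 0.1). No libraries agreed within sampling noise (smallest chi-square per degree of freedom 61.0).

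In R 4.3.3 with edgeR 4.0.16, genes passing filterByExpr (minimum count 10; 4916 genes, 91.8% to 97.2% of counts) were tested with TMM, the neuron as block, glmQLFit (robust) and glmQLFTest, with Benjamini-Hochberg adjustment over all of them. Standard errors were derived as |log2 fold change| / √F. Alternatives used DESeq2 1.42.0, limma 3.58.1 (voom), other scalings and filters, and fewer neurons. The fit was tested on simulated counts, where the pass criteria covered only a low spread between libraries. Its power at the spread of these data is not given here. Shares needed 20 counts per library. Intervals and limits from counts cover counting error only, since amplified reads are not independent molecules. The 10 genes, the pathway list, the named genes (all members, 6 fixed pathway genes and the 2 with the smallest p per direction) and the tests were chosen with earlier results of these data known; Dctn4, Spdl1 and Rilp were named after their values were seen. Older symbols Ccdc64 and Ccdc64b stood for Bicdl1 and Bicdl2, per a RefSeq table of assembly GRCr8.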

Additional observations from a re-analysis of the deposited data

How the results depend on the processing

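Of the 10 genes, 0 were called under every alternative run except the DESeq2 Wald test (1, Bicd2, log2 fold change 3.52). Over all tested genes 0 were called in edgeR fits with another scaling or block, in limma-voom and in the sign-flip test. The 16 fits that left out 1 neuron each also called 0, while 1 was called without a filter on low counts and 406 with DESeq2. Of the other pathway genes 0 were called throughout. With no replicate block the values were -0.92 for Dync1i1 and 1.43 for Bicd2, and unpaired shares gave -5.57 percentage points for Dync1i1 (permutation p = 0.329) and -1.96 for Dync1li1 (0.869). Spike-in scaling moved the median of all genes by -0.180, no filter by 0.189 and no block by -0.197; relative to that median, Dync1i1 stood at -0.85 with spike-in scaling and Bicd2 at 2.90. Signs turned for Dctn1 (-0.024 with library totals, -0.26 with spike-ins, -0.026 without a filter, -0.0073 with a stricter filter, -0.15 with limma-voom, -0.053 without neurons 7, 8 and 9, -0.0022 without neurons 20 and 25, and -0.21 to 0.20 over fits without 1 neuron), for Dynll1 (0.023 with spike-ins, 0.062 with limma-voom, 0.14 without neurons 20 and 25, -0.30 to 0.14 without 1 neuron) and for Dync1li2 (0.10 without neurons 20 and 25, -0.47 to 0.0070 without 1 neuron). The Dync1i1 share difference stayed between -8.26 and -1.84 percentage points without 1 neuron, and that of Dync1li1 ran from -3.67 to 2.24. The fit without neurons 20 and 25 was added after seeing the data. Bicd2 did not pass the stricter filter, so it has no value there. At 1 depth Dync1li1 had 5 counts in 3 of 15 somata. Depth limited detection most in neuron 25, where 0 counts in dendrites allowed up to 13.1 CPM.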
